A study of Mus musculus with 2 samples.

Results

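The 35 genes described here encode the folding, quality control and stress signalling machinery of the endoplasmic reticulum (ER), the compartment in which secreted and membrane proteins are made. They were chosen by name for these roles and are 35 of the 15364 genes in the table of kept cells, where all were found. By role they were 9 chaperones and co-chaperones (Hspa5, Hsp90b1, Hyou1, Dnajb9, Dnajb11, Dnajc3, Sdf2l1, Manf and Creld2), 2 lectin chaperones (Calr and Canx), 6 enzymes of disulfide bond formation (P4hb, Pdia3, Pdia4, Pdia6, Ero1l and Ero1lb), 2 prolyl isomerases (Ppib and Fkbp2), 2 stress transducers (Atf6 and Xbp1), 5 genes of the ATF4 arm (Atf4, Ddit3, Trib3, Chac1 and Asns), 7 degradation genes (Herpud1, Edem1, Sel1l, Syvn1, Derl1, Derl2 and Os9) and 2 translocation genes (Ssr1 and Sec61b).

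Their transcripts were measured in cultured neural stem cells. The cells came from hippocampi of C57BL6/J mice, male and 6 weeks old. Activated cells grew with FGF-2 and EGF at 20 ng/mL. Quiescent cells, counted as such after 3 days, were made from them with 50 ng/mL BMP-4 and FGF-2 but no EGF, and cells in exit had then spent 24 h or 48 h in activation medium to which noggin, which blocks BMP-4, was added at 0.5 µg/mL. From each of these 4 cultures single cells were sorted through 4 gates, named low, low-mid, mid-high and high, that divide the range of punctate autofluorescence, the light that unstained cells emit from small spots. The quiescent and 24 h cultures shared 1 plate, and the 48 h and activated cultures shared the other. All are cultured cells with no neighbouring tissue, and the number of mice behind them is not given in the sources used here.

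The ER folds new proteins with the help of the chaperone BiP (Hspa5), the lectin chaperones calnexin and calreticulin, and enzymes that form and rearrange disulfide bonds. When unfolded protein accumulates, 3 sensors in the ER membrane start the unfolded protein response. ATF6 is cut to release a transcription factor, IRE1 splices the mRNA of the transcription factor XBP1, and PERK phosphorylates the translation factor eIF2α, which slows protein synthesis while translation of ATF4 goes up. ATF6 and XBP1 are known to drive chaperone and degradation genes. ATF4 drives genes of amino acid supply and the stress regulators Ddit3 (CHOP), Trib3 and Chac1, and it also answers other kinases that act on eIF2α, such as the amino acid sensor GCN2. The libraries count tags near the 3′ end, so XBP1 splicing, ATF6 cleavage and eIF2α phosphorylation were not measured.

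Some of the promoters of these genes carry 1 of 2 kinds of sequence through which the response is known to act. The ER stress response element (ERSE; CCAAT, 9 of any base, then CCACG, on either strand) is the element through which ATF6 and XBP1 act, and the CARE element (TGATG, any base, then AA, on either strand) is the kind of site that ATF4 binds. RefSeq promoter windows of 300 bases (250 before to 50 after the start, GRCm38.p6, the mm10 assembly) were found for 31 of the 35 genes, in 34 windows. ERSE occurred in 9 of the 34 windows (26.5%) and in 0.119% of all 32851 windows, and its 9 genes were Calr, Canx, Creld2, Dnajc3, Ero1lb, Hsp90b1, Hspa5, Pdia6 and Syvn1. CARE occurred in 4 (11.8%; 3.97% of all windows), those of Asns, Chac1, Herpud1 and Trib3. The second ERSE form (ATTGG, any base, then CCACG) occurred in 2 (5.88%; 0.0365% of all), those of Dnajb11 and Herpud1, and the XBP1 element (TGACG then TGG) occurred in 0 of 34 against 0.676% of all. A match describes letters in this window and is not a measured binding site. The sequences are given for the genes with the largest differences between cultures and for Canx, which has the element but differed little; capitals mark the motif, and each is written 5′ to 3′ on the strand of the gene.
Hspa5, chr2:34772010-34772058, + strand, ERSE at -65 to -47 from the start: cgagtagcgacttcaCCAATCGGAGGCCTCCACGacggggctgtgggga
Calr, chr8:84847060-84847108, - strand, ERSE on the opposite strand at -162 to -144: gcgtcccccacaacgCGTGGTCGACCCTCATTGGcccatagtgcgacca
Pdia6, chr12:17266476-17266524, + strand, ERSE at -98 to -80: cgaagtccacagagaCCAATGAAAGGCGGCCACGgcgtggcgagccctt
Dnajc3, chr14:118937812-118937860, + strand, ERSE at -105 to -87: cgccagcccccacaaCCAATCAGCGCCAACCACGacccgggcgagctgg
Creld2, chr15:88819505-88819553, + strand, ERSE on the opposite strand at -126 to -108: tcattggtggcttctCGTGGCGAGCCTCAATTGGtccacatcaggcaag
Canx, chr11:50325785-50325833, - strand, ERSE at -145 to -127: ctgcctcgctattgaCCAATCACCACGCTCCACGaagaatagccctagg
Asns, chr6:7693210-7693247, - strand, CARE at -23 to -16: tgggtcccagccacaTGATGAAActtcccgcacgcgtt
Chac1, chr2:119351034-119351071, + strand, CARE on the opposite strand at -193 to -186: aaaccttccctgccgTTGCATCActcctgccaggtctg
Herpud1, chr8:94386302-94386402, + strand, CARE on the opposite strand at -112 to -105 and the second ERSE form at -52 to -42: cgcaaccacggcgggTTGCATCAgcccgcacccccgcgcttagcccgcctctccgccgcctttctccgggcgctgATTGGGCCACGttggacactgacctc

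The data held 640 cells, with 151 to 174 cells per culture and 32 to 46 per culture and gate, beside a stated 47 cells per condition in the series' design text. Transcript counts summed to between 3046628 and 6563487 per culture and from 5013 to 97008 per cell. Levels are given as CPM, the counts of a gene in a summed culture or gate scaled to a fixed total, and differences between cultures are log2 ratios of CPM + 10, which understate changes of genes at low levels. Each culture was measured once, so no difference between cultures has a test or a replicate check. The intervals in brackets cover 95% counting error only, and the spread between gates is the spread between groups of cells of 1 culture. All 8 neural stem cell markers were detected in all 4 cultures (summed level 4188 to 6616 CPM), though Hes5 had 3 counts at 48 h and Gfap 10 there and 9 in activated cells. The markers of microglia, endothelial and mesenchymal cells in the file (3 of 6, 3 of 5 and 3 of 5 listed) summed to at most 2.13 CPM. Summed astrocyte markers stood at 1064 CPM in the quiescent, 1827 in the 24 h, 481 in the 48 h and 157 in the activated culture, and the 5 oligodendrocyte lineage markers in the file at 1958, 3665, 3540 and 1870 CPM. The 7 neuron markers summed to 247, 342, 431 and 369 CPM, most of it Map2, with Dcx and Rbfox3 under 1 CPM throughout and Tubb3 at 41.4, 7.55, 4.36 and 10.7 CPM. Their part in the results below was not tested.

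Together the 35 genes took 4669 CPM in quiescent cells, 3274 at 24 h of exit, 3547 at 48 h and 4913 in activated cells. The summed level was lower in both exit cultures than in either steady state. The median share of mitochondrial counts per cell was higher in both, at 8.11% at 24 h and 8.88% at 48 h against 6.94% in quiescent and 5.42% in activated cells, and its part in this difference was not tested. In the quiescent culture the summed level was lower in each brighter gate, at 5772, 5082, 4330 and 4104 CPM. Part of this was shared by all genes. Scaled to totals, the median log2 difference between the high and low quiescent gates was -0.41 over 31 listed genes and -0.19 over 8739 genes. The 9 chaperones summed to 1433, 913, 1122 and 1696 CPM in the 4 cultures in the same order, and the 6 disulfide enzymes to 637, 415, 555 and 845 CPM. The 5 ATF4 arm genes showed another order, with 205 CPM in quiescent cells and 344, 240 and 251 CPM in the 24 h, 48 h and activated cultures, so that the 24 h culture was the highest in CPM, though not per spike-in count. The degradation genes, at 410 and 380 CPM in the quiescent and 24 h cultures, stood at 282 and 298 CPM in the 48 h and activated ones, which were on the other plate.

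The first comparison, 24 h of exit against quiescence on the same plate, asks which of these genes differ early after the return to activation medium. At 24 h 6 of 9 chaperones, 1 of 2 lectin chaperones, 1 of 6 disulfide enzymes, 1 of 2 transducers and 1 of 7 degradation genes were at least 1.5-fold lower, and 2 of the 4 measured ATF4 arm genes were at least 1.5-fold higher. Of 34 genes with at least 20 counts in both cultures together, 10 were at least 1.5-fold lower, beside 6.28% of the 10462 genes measured, and 2 were at least 1.5-fold higher, beside 4.53%. Their median log2 ratio was -0.29, against -0.01 for all genes. The shares past 1.5-fold and the medians over all genes, here and below, take in genes with as few as 20 counts. For such genes the added 10 CPM makes 1.5-fold harder to reach, and these shares were not matched to the levels of the listed genes. The 4 gates of the 24 h culture all lay below the 4 of the quiescent culture for 11 of the 34 (10.1% of all genes) and all above for 4 (7.95% of all genes). Trib3, a pseudokinase induced by ATF4, had 9 counts at 24 h and 4 in quiescent cells and was not among the 34.

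**Figure D1:**
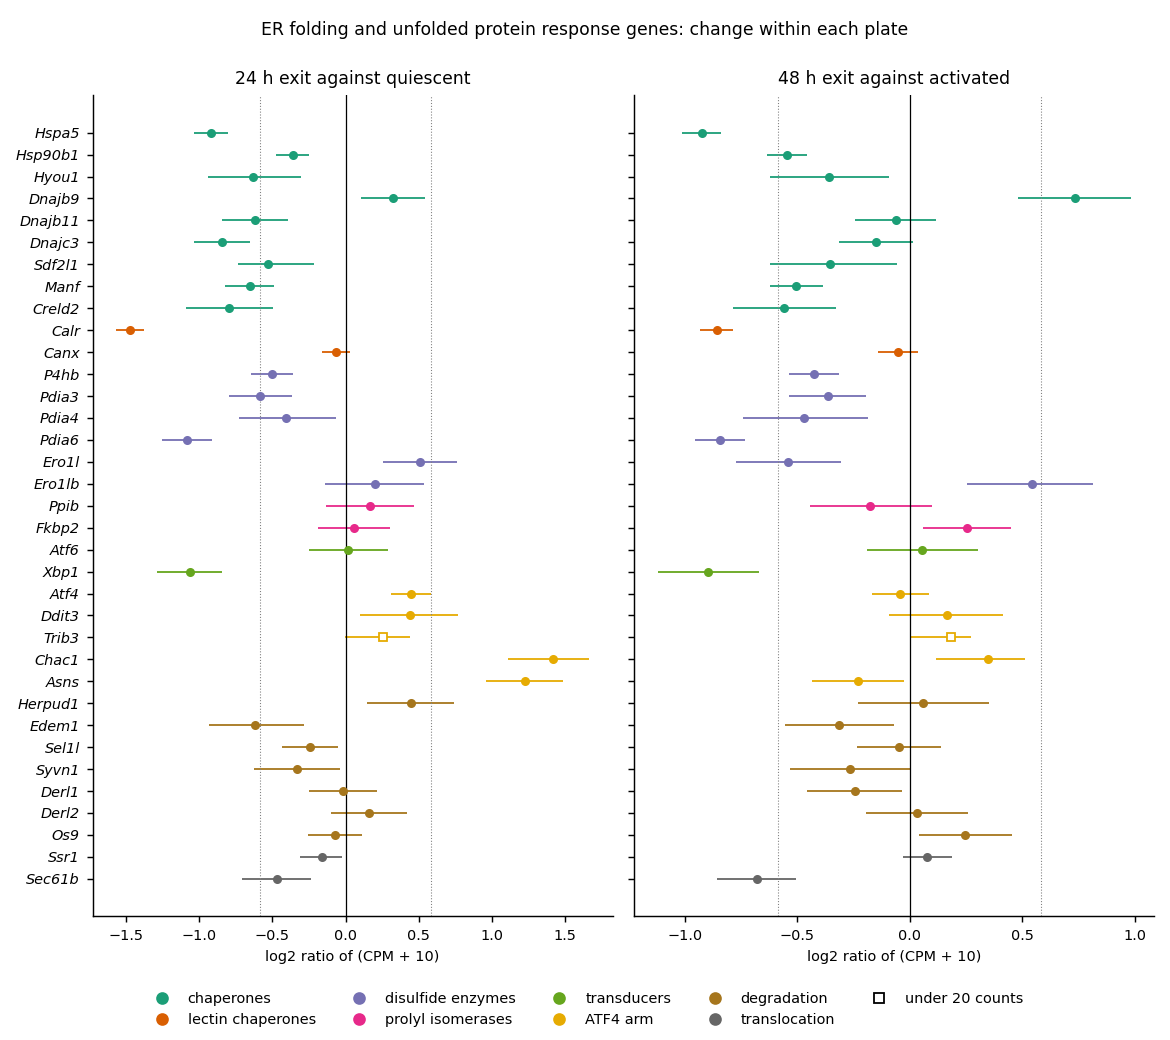
Log2 ratio of CPM + 10 for each of the 35 genes, coloured by role, in the 2 comparisons made within a plate; bars are 95% counting intervals, dotted lines mark 1.5-fold, and the open square is Trib3, with under 20 counts. Calr, Pdia6, Xbp1 and Hspa5 lie left of the dotted line in both panels, while Chac1 and Asns lie right of it in the left panel alone.

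Among the chaperones, 6 of 9 were at least 1.5-fold lower at 24 h, and the median of the group was -0.63. Hspa5 encodes BiP, the ER's main Hsp70 chaperone. It stood at 696, 553, 387 and 372 CPM in the low, low-mid, mid-high and high gates of the quiescent culture. In the same gates at 24 h it stood at 335, 237, 214 and 229 CPM. The ranges did not overlap, and the log2 ratio of the whole cultures, at 245 and 473 CPM, was -0.92 (-1.04 to -0.81). Dnajc3, a co-chaperone of BiP also known as an inhibitor of eIF2α kinases, had a log2 ratio of -0.84 (80.1 against 152 CPM). Creld2 (-0.80) and Manf (-0.66), small ER proteins induced by stress, and Hyou1 (-0.63), which exchanges the nucleotide of BiP, were lower too, as was the co-chaperone Dnajb11 (-0.62). Hsp90b1, the ER's Hsp90, differed less, with a log2 ratio of -0.36 (-0.47 to -0.25) at 296 against 382 CPM, and its gates did not overlap. Sdf2l1 had 5 counts at 24 h against 33 in quiescent cells and a log2 ratio of -0.53 (-0.73 to -0.22).

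Dnajb9, which encodes ERdj4, a co-chaperone that keeps IRE1 inactive with BiP, was the 1 chaperone gene with a ratio above 0. Its levels were 72.5, 69.8, 51.1 and 57.4 CPM in the quiescent gates from low to high and 69.7, 87.5, 70.3 and 84.3 CPM in the 24 h gates. The log2 ratio was 0.32 (0.10 to 0.54), the gates overlapped, and the ratio turned to -0.08 when counts were scaled to the spike-in RNA instead of to the total.

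Calr had the lowest log2 ratio of the 35 genes. It encodes calreticulin, which holds newly made glycoproteins and binds calcium. Its level was 1195, 1096, 939.7 and 820.4 CPM in the quiescent gates and 377, 325, 322 and 370 CPM in the 24 h gates. The groups were far apart, with culture levels of 976 and 345 CPM and a log2 ratio of -1.47 (-1.57 to -1.38). Canx, which encodes its membrane-bound relative calnexin and has an ERSE match as Calr does, stood at 487 and 465 CPM, with overlapping gates and a log2 ratio of -0.07 (-0.16 to 0.03).

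Of the 6 disulfide enzymes, 4 had ratios below 0 and 2 above. Pdia6, a protein disulfide isomerase that binds BiP clients, stood at 271, 272, 197 and 190.4 CPM in the quiescent gates and at 112, 102, 94.1 and 97.9 CPM at 24 h. Its gates did not overlap and its log2 ratio was -1.08 (-1.26 to -0.92). Pdia3 (-0.58), P4hb (-0.50) and Pdia4 (-0.41), further disulfide isomerases, were lower by less than 1.5-fold. Ero1l encodes the oxidase that recharges these enzymes. It went the other way, with 48.7, 40.0, 34.1 and 31.9 CPM in the quiescent gates against 49.8, 55.2, 52.7 and 67.2 CPM at 24 h. Every 24 h gate was above every quiescent gate, the log2 ratio being 0.51 (0.25 to 0.76), or 0.13 scaled to spike-ins. Its relative Ero1lb had 27 and 31 counts and a ratio of 0.20 (-0.14 to 0.54).

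Xbp1, whose spliced mRNA encodes the transcription factor, was the transducer that differed. It stood at 162, 120.0, 113 and 109 CPM in the quiescent gates and at 39.8, 49.5, 61.5 and 55.8 CPM in the 24 h gates. The cultures were apart, with a log2 ratio of -1.07 (-1.29 to -0.85). After each cell had been thinned to 12488 identifiers, leaving out 18 quiescent and 29 24 h cells that were shallower, Xbp1 was seen in 74.4% of quiescent cells (exact binomial interval from 66.8%) and 44.3% of 24 h cells (from 35.3%); unthinned, the shares were 90.2% and 56.3%. Atf6 stood at 39.5 and 40.1 CPM (log2 ratio 0.02, -0.25 to 0.29).

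All 4 measured ATF4 arm genes had ratios above 0 at 24 h, with a median of 0.84, and Asns and Chac1 were past 1.5-fold. Atf4 itself stood at 174, 192, 131 and 187 CPM in the quiescent gates and at 237, 209, 239 and 267 CPM in the 24 h gates. The gates did not overlap and the log2 ratio was 0.45 (0.31 to 0.59), but scaled to spike-ins it was 0.00. Asns, asparagine synthetase, stood at 14.3, 17.7, 17.9 and 29.6 CPM in the quiescent gates and at 75.7, 63.3, 62.8 and 56.9 CPM at 24 h. Its log2 ratio was 1.22 (0.96 to 1.49), and in CPM every 24 h gate was well above every quiescent one. Scaled to spike-ins, the ratio of the whole cultures remained 0.86.

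Chac1, a glutathione-degrading enzyme induced through ATF4 and CHOP, had the largest ratio upwards; it had 99 counts in both cultures together and was named after its values were seen. It stood at 2.38, 2.79, 5.96 and 3.48 CPM in the quiescent gates and at 29.9, 12.7, 18.8 and 45.6 CPM in the 24 h gates. With 18 counts in quiescent cells and 81 at 24 h, the log2 ratio was 1.41 (1.11 to 1.66). After thinning, 18.9% of 24 h cells had a Chac1 transcript (12.3% is the lower bound) against 1.92% of quiescent cells, 1.43% of 48 h cells and 0.633% of activated cells; the unthinned shares were 19.9%, 5.17%, 3.31% and 3.66%. The Chac1 counts of the 24 h culture came from 30 of 151 cells, with 11.1% of them in 1 cell. Ddit3, which encodes CHOP, stood at 10.7, 3.72, 7.66 and 6.96 CPM in the quiescent gates and 7.97, 9.20, 17.6 and 15.9 CPM at 24 h. These gates overlapped and the log2 ratio was 0.44 (0.10 to 0.77) from 34 and 40 counts.

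**Figure D2:**
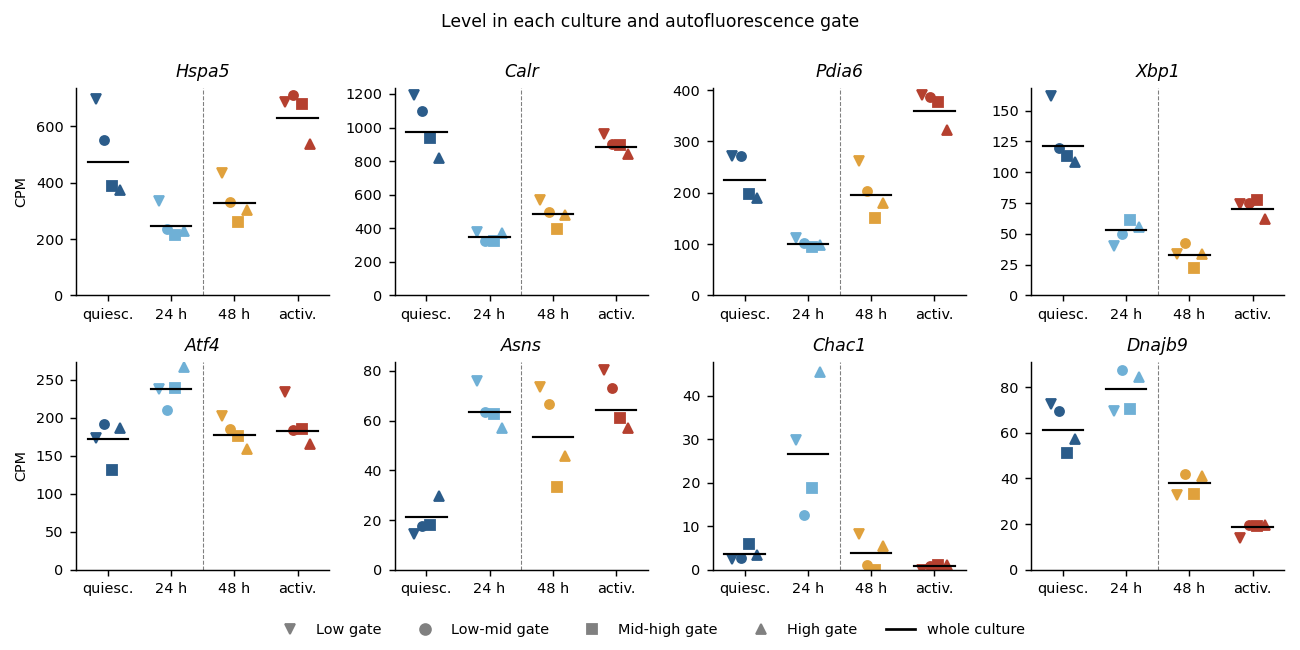
CPM of 8 genes in each culture (x axis) and gate (marker shape), with the whole culture as a black line; the dashed line separates the 2 plates. Hspa5, Calr, Pdia6 and Xbp1 are lower in the 24 h than in the quiescent gates and lower in the 48 h than in the activated gates, and Chac1 is highest at 24 h.

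Degradation genes did not move as 1 group at 24 h. The median over the 7 was -0.07, with 1 at least 1.5-fold lower. That gene was Edem1, a lectin that hands misfolded glycoproteins to degradation, at 12.5 against 24.5 CPM (log2 ratio -0.62, -0.94 to -0.29), with gates apart. Herpud1, a stress-induced part of the ER membrane ubiquitin ligase complex, stood at 17.8, 33.5, 12.8 and 19.7 CPM in the quiescent gates and at 17.9, 23.0, 37.7 and 43.3 CPM at 24 h. Its gates overlapped, and its log2 ratio of 0.44 (0.14 to 0.74) was 0.11 scaled to spike-ins. The ligase Syvn1 (-0.33) and its partner Sel1l (-0.24) had intervals below 0, and those of the channel proteins Derl1 (-0.02) and Derl2 (0.16) and the lectin Os9 (-0.07) held 0. Of the translocation genes, Sec61b, a subunit of the protein-conducting channel, had a ratio of -0.47 and Ssr1, part of the complex beside it, -0.16. The prolyl isomerases Ppib (0.17) and Fkbp2 (0.06) had intervals that held 0.

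The 2 promoter classes went apart in this comparison. The 9 genes with an ERSE match had a median log2 ratio of -0.80, with 8 below 0, and the 21 measured genes whose windows lacked it had a median of -0.07, with 11 below 0. The 3 measured genes with a CARE match were all above 0, with a median of 1.22, and the 27 without it had a median of -0.36. These 2 contrasts overlap, as the 21 genes include the 3 with CARE and the 27 include the 9 with ERSE. Herpud1 is in the CARE class and has the second ERSE form, as does Dnajb11, which was lower. Xbp1, Edem1 and Pdia3 were lower with neither ERSE form in the window.

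**Figure D3:**
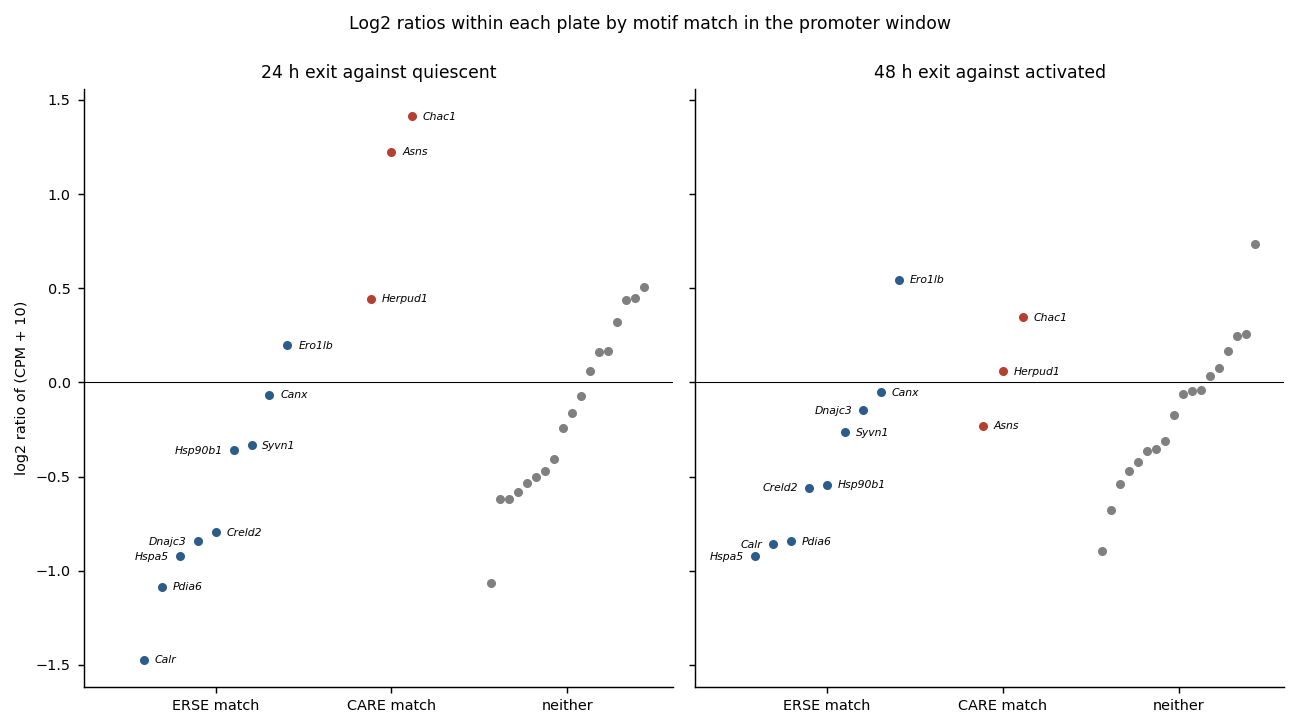
Log2 ratio of CPM + 10 for measured genes with an ERSE match, a CARE match or neither in the promoter window, for each comparison within a plate; the 4 genes with no window are left out. At 24 h against quiescence 8 of the 9 ERSE genes are below 0 and the 3 CARE genes above it; at 48 h against activated cells 8 of 9 ERSE genes are below 0 and the CARE genes lie on both sides.

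A further 113 genes of the pathway were in the table, from a list of 115. Over the 109 measured at 24 h the median was -0.03, with 9 at least 1.5-fold higher and 7 lower, beside 4.53% and 6.28% of all genes, so that the list as a whole was near all genes in its median and its lower share. Of 26 further ATF4 targets measured, 9 were at least 1.5-fold higher at 24 h and 0 were lower, with a median of 0.43. Among them were Nupr1, a stress-induced chromatin protein (1.70; 31.8 against 2.91 CPM), Psat1, an enzyme of serine synthesis (1.34; 283 against 106 CPM), Eif4ebp1, a repressor of translation initiation (1.2), and Aldh18a1, an enzyme of proline synthesis (1.17). Of 18 translocon and signal peptidase genes, 16 had ratios below 0 (5405 of all 10462 genes), with 3 at least 1.5-fold lower, and of 24 further folding genes 3 were at least 1.5-fold lower. The lowest were Kdelr3 (-1.25) and Kdelr2 (-0.74), receptors that return escaped ER proteins, Txndc5 (-0.84), a disulfide isomerase, and Eif2ak3 (-0.65), which encodes the sensor PERK. The 14 N-glycan genes had a median of -0.14, with 0 past 1.5-fold, and the 17 further degradation genes measured had 0.06.

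The second comparison, 48 h of exit against activated cells on the other plate, sets cells late in exit beside the state they are returning to. It shares no culture with the first. At 48 h 1 of 9 chaperones, 1 of 2 lectin chaperones, 1 of 6 disulfide enzymes, 1 of 2 transducers and 1 of 2 translocation genes were at least 1.5-fold lower, 1 chaperone was at least 1.5-fold higher, and 0 of the 4 measured ATF4 arm genes were past 1.5-fold. Most chaperones (8 of 9) and disulfide enzymes (5 of 6) had ratios below 0, as had 6600 of all 10780 genes. Of 34 genes measured, 5 were at least 1.5-fold lower, beside 7.96% of 10780 genes, and 1 was at least 1.5-fold higher, beside 3.99%. The median was -0.24, against -0.08 for all genes. Gates were apart and lower for 16 of the 34 (15.1% of all genes) and apart and higher for 3 (8.76% of all genes). Calr, Hspa5, Pdia6 and Xbp1 were the 4 listed genes at least 1.5-fold lower in both comparisons. The share of all genes lower in both was not counted.

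Hspa5 stood at 433, 332, 261 and 302 CPM in the 48 h gates from low to high and at 687, 712, 679.9 and 536 CPM in the activated gates. No 48 h gate reached an activated one, and the log2 ratio was -0.92 (-1.01 to -0.84). Calr stood at 567, 494, 395 and 481 CPM at 48 h and at 961, 903, 897 and 841 CPM in activated cells, with a log2 ratio of -0.86 (-0.93 to -0.79). The Calr gates were also apart. Pdia6 stood at 261, 203, 151 and 179.7 CPM against 390.3, 387, 376 and 323 CPM, with a ratio of -0.84 (-0.96 to -0.73). Its highest 48 h gate was below its lowest activated gate. Xbp1 stood at 33.8, 42.9, 22.2 and 33.8 CPM against 74.5, 74.8, 77.3 and 62.3 CPM, a ratio of -0.90 (-1.12 to -0.67). The share of thinned cells with Xbp1 was 27.9% at 48 h and 60.8% in activated cells (unthinned, 51.7% and 79.9%).

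Sec61b was the remaining gene past 1.5-fold downwards (-0.68, -0.86 to -0.51; 70.1 against 118 CPM). Creld2 (-0.56), Hsp90b1 (-0.54), Ero1l (-0.54), Manf (-0.51), Pdia4 (-0.47), P4hb (-0.42), Pdia3 (-0.36), Hyou1 (-0.36) and Sdf2l1 (-0.35) were lower by less, with gates apart for all 9. Ero1l was therefore lower at 48 h than in activated cells, with 38.5, 29.4, 28.9 and 31.05 CPM against 45.4, 49.1, 52.1 and 52.4 CPM, whereas it had been higher at 24 h than in quiescent cells. The intervals of Dnajb11 (-0.06), Dnajc3 (-0.15) and Canx (-0.05) held 0, though the gates of Dnajc3 were apart. Among the degradation genes Edem1 (-0.31) and Derl1 (-0.24) had intervals below 0, and Syvn1 (-0.26), Sel1l (-0.05) and Derl2 (0.03) had intervals that held 0, as had Ppib (-0.18) and Atf6 (0.06).

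Dnajb9 was the gene at least 1.5-fold higher at 48 h. It stood at 32.6, 41.8, 33.3 and 41.2 CPM in the 48 h gates and at 13.96, 19.5, 19.04 and 19.7 CPM in the activated gates, with a log2 ratio of 0.73 (0.48 to 0.98). All 48 h gates were above all activated ones, but in cells called G1 by the authors the ratio was -0.04, from 10 counts in 21 cells at 48 h and 21 counts in 23 activated cells. Fkbp2 followed at 73.5, 67.8, 65.6 and 71.6 CPM against 54.7, 57.7, 61.1 and 54.3 CPM (0.26, 0.06 to 0.45). Os9, at 56.0, 66.6, 53.3 and 62.8 CPM against 46.5, 45.2, 39.8 and 58.1 CPM, had a ratio of 0.25 (0.04 to 0.45). Ssr1 stood at 319, 282, 248 and 217 CPM against 255, 280.1, 242 and 227 CPM (0.08, -0.03 to 0.19). Fkbp2 was apart between gates, Os9 and Ssr1 overlapped, and all 3 ratios were below 0 when scaled to spike-ins (-0.12, -0.12 and -0.34). Ero1lb had 51 counts at 48 h against 35 in the larger activated sum, a ratio of 0.54 (0.25 to 0.81) with gates apart.

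In the ATF4 arm, Atf4 stood at 202, 185, 176 and 159 CPM at 48 h and at 234, 183, 185 and 165 CPM in activated cells, with a log2 ratio of -0.04 (-0.17 to 0.09). Asns stood at 73.5, 66.7, 33.3 and 45.9 CPM against 80.3, 73.3, 61.1 and 57.0 CPM, a ratio of -0.23 (-0.44 to -0.03). The gates of both genes overlapped. Herpud1 stood at 16.3, 5.65, 12.2 and 7.42 CPM against 10.5, 10.9, 11.8 and 6.07 CPM, a ratio of 0.06 (-0.23 to 0.35). Ddit3 stood at 1.17, 2.26, 5.55 and 6.07 CPM against 2.33, 2.34, 2.24 and 3.04 CPM, from 17 counts in each culture (0.17, -0.09 to 0.41). Chac1 had 16 counts at 48 h, 7 of them in 1 cell, and 6 in activated cells, with a log2 ratio of 0.35 that was 0.18 without the cell of each culture that held the most.

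The ERSE genes had a median of -0.54 at 48 h, with 8 of 9 below 0, against -0.06 for the 21 measured genes without an ERSE match. The 3 CARE genes had a median of 0.06. Of 27 further ATF4 targets measured, 5 were at least 1.5-fold higher and 0 lower, with a median of -0.08. They were led by the amino acid transporter genes Slc7a5 (1.503; 189 against 60.0 CPM) and Slc3a2 (0.97), with the alanine transaminase gene Gpt2 (0.82) and the lipoprotein receptor Vldlr (0.73) next. Over the whole list 6 of 110 genes were at least 1.5-fold higher and 3 lower, beside 3.99% and 7.96% of all genes, and the median was -0.10. The lowest 4 were Kdelr3 (-0.85), Eif2s1, which encodes eIF2α (-0.84), Mbtps2, the protease that completes ATF6 cleavage (-0.61), and the calcium-binding ER protein Rcn1 (-0.55).

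Scaling by spike-ins moved every ratio. It gave a median over all genes of -0.32 at 24 h against quiescence and -0.36 at 48 h against activated cells, and medians over the 34 measured genes of -0.67 and -0.56. The median cell held 73.3, 54.2, 81.3 and 118 counts per spike-in count in the quiescent, 24 h, 48 h and activated cultures. On that scale 19 of the 34 genes were at least 1.5-fold lower at 24 h and 16 at 48 h. The ratios of Atf6, Fkbp2, Ppib and Derl2 at 24 h and of Atf6, Herpud1 and Derl2 at 48 h, all with intervals that held 0, went from above to below 0. Per 1000 spike-in counts the ATF4 arm took 15.7, 19.1, 21.05 and 29.8 counts in the quiescent, 24 h, 48 h and activated cultures, so that on this scale the activated culture and not the 24 h culture was the highest. All 35 genes took 358, 182, 311 and 583 counts, with the 24 h culture lowest and the activated culture highest on both scales.

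The other 3 comparisons set cultures on different plates against each other, so plate and condition cannot be told apart. The quiescent culture enters 2 of them and the first comparison. In activated against quiescent cells the median was 0.05, with 3 genes at least 1.5-fold higher (19.8% of 11011 genes) and 5 lower (14.3%). The higher ones were Asns (1.24), Pdia6 (0.65) and Sec61b (0.59), and the lower ones Dnajb9 (-1.31), Os9 (-1.05), Xbp1 (-0.71), Herpud1 (-0.68) and Sel1l (-0.60). Hspa5 had a ratio of 0.41 and Calr one of -0.14. Without the mid-high gate the median was -0.05 and 1 gene was at least 1.5-fold higher.

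In 48 h against 24 h of exit the median was 0.16, with 3 genes at least 1.5-fold higher (11.7% of 10324 genes) and 6 lower (9.89%). Pdia6 (0.90), Edem1 (0.83) and Manf (0.61) were higher. Chac1 (-1.40), Herpud1 (-1.07), Dnajb9 (-0.90), Os9 (-0.73), Ddit3 (-0.71) and Ero1l (-0.68) were lower; this comparison and the first share the 24 h culture. In 48 h of exit against quiescent cells the median was -0.24, with 1 gene higher, Asns (1.01; 11.9% of 10663 genes), and 7 lower (11.6%). Xbp1 was the lowest of these at -1.61 (-1.82 to -1.39), with Calr at -1.001, and Os9, Sel1l, Herpud1, Dnajc3 and Syvn1 between -0.80 and -0.61.

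The autofluorescence gates ask whether these genes follow autofluorescence within a culture. The high and low gates were compared with edgeR's quasi-likelihood test on 8 sums, with the culture as a block and therefore 4 cultures as replicates. Of 31 genes of the list tested, 0 passed a Benjamini-Hochberg adjusted p of 0.05, beside 1.90% of 8739 genes called higher in the high gate and 0.481% called lower. Of the 31, 4 had an unadjusted p under 0.05, and the share of all genes under it was not counted. Hspa5 came closest. It was lower in the high gate in 4 of 4 cultures, with log2 differences of -0.64, -0.43, -0.28 and -0.30 in the quiescent, 24 h, 48 h and activated cultures and an estimate of -0.42 (SE 0.119; adjusted p = 0.0612 by edgeR). Over its alternatives that adjusted p ran from 0.00450 with the gate number as a linear term over 16 sums to 1.00 without the culture block; DESeq2, which gave an adjusted p for 1904 genes, called it (0.0405). Leaving out 1 culture gave 0.119 to 0.208.

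Os9, which recognises misfolded glycoproteins, was the second. It was higher in the high gate in 4 of 4 cultures, with an estimate of 0.45 (SE 0.153, adjusted p = 0.128 by edgeR), and the fit of all 16 sums with the gate as a factor gave 0.0495. Dnajb11 followed at -0.34 (SE 0.153, adjusted p = 0.272 by edgeR), lower in 3 of 4 cultures. Pdia6 was lower in 4 of 4 with an estimate of -0.23 (SE 0.120), and its adjusted p was 0.356 by edgeR. The median estimate over the 31 was -0.02, and over all genes 0.00. With the scaling factors of the test, the median difference in the quiescent culture was -0.21 over the 31 genes, against 0 over all 8739 genes. There 23 of 31 genes were lower in the high gate, and the share of all genes lower was not counted. In the 24 h, 48 h and activated cultures the median over the 31 was 0.10, -0.04 and 0.08, against 0.01 in each over all genes. Counts per cell rose with the gate, from a median of 18910 in the quiescent low gate to 40452 in the quiescent high gate and from 14234 to 23480 at 24 h; their part in the gate differences was not tested.

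**Figure D4:**
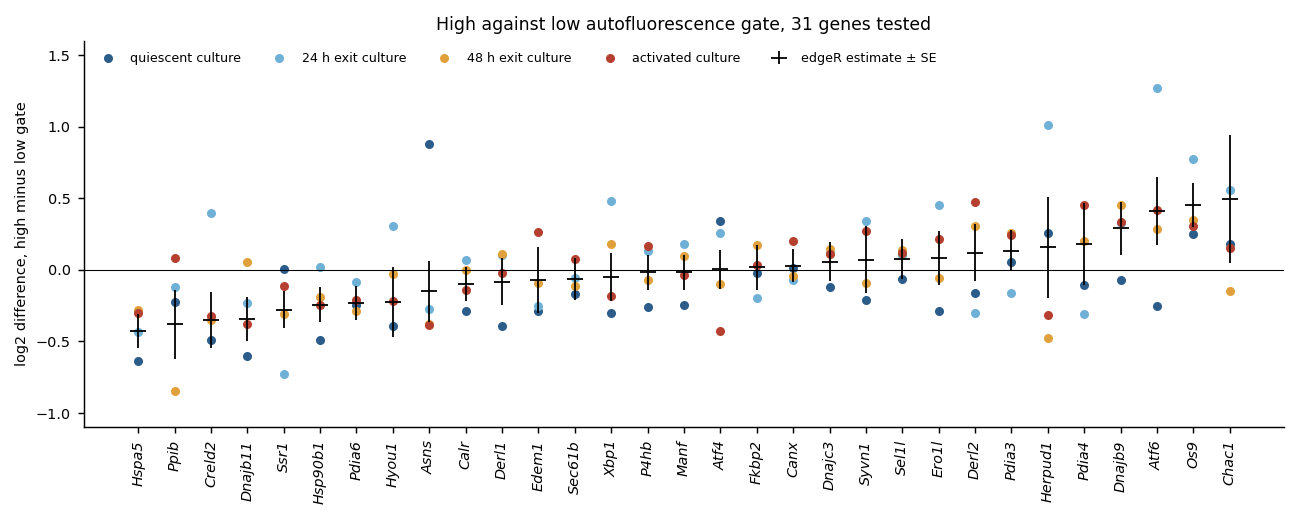
Log2 difference between the high and low gates for the 31 genes tested, with 1 point per culture and the edgeR estimate ± SE in black. Hspa5 and Pdia6 lie below 0 in all 4 cultures and Os9 above 0 in all 4, and no gene passed the adjusted threshold.

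Among the further pathway genes 1 of 101 was called, beside the 1.90% of all genes called higher. Creb3l1, an ER-anchored transcription factor related to ATF6, was higher in the high gate in 4 of 4 cultures, with an estimate of 1.49 (SE 0.385, adjusted p = 0.0446 by edgeR). DESeq2, the fit without the culture block, and the fits without the 24 h or the 48 h culture called 0 pathway genes higher. Whether the slope over the 4 gates differed between cultures was tested by an interaction term over the 16 sums, which called 0.976% of 9225 genes and 0 of the 33 listed genes tested in edgeR. Of the 33, 4 had an unadjusted p under 0.05, and the share of all genes under it was not counted. The error of this test comes from the 4 gates within each culture, which are not replicate cultures. On data simulated with 1 level of scatter for all genes, this test recovered 40 of 66 genes changed 4-fold in 1 culture. It recovered 0 of 67 changed 2-fold and 0 of 67 changed 1.5-fold. Changes between 2- and 4-fold, or in more than 1 culture, were not simulated.

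**Figure D5:**
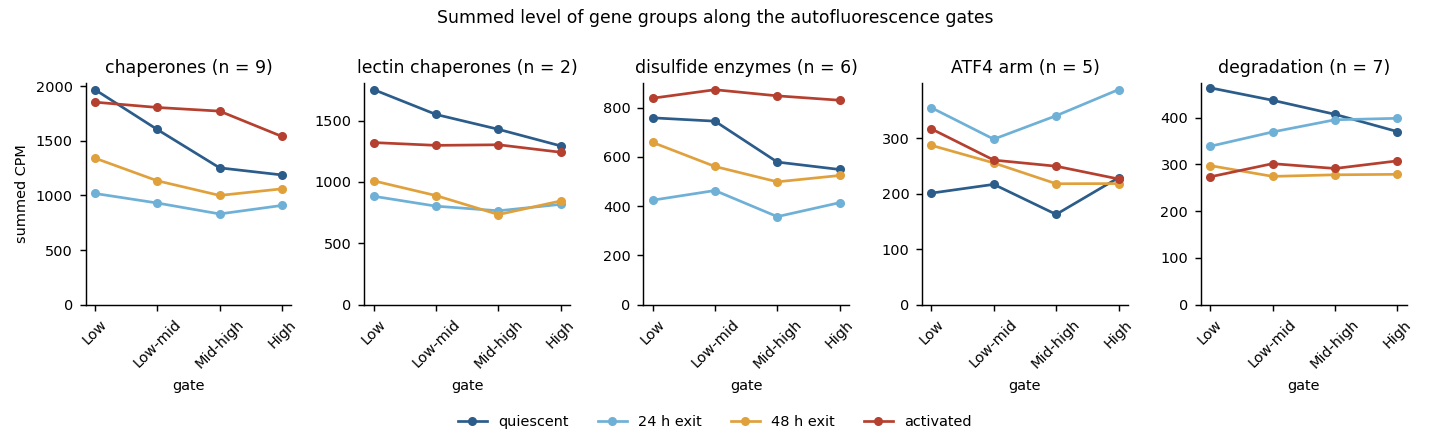
Summed CPM of 5 role groups in the 4 gates (x axis, low to high autofluorescence) of each culture (line colour). Chaperones go from 1969 to 1188 CPM from the low to the high gate in quiescent cells, where the median log2 difference over 8739 genes was -0.19. The ATF4 arm is highest in the 24 h culture in every gate, though per spike-in count it is highest in the activated culture.

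Over the 16 sums of culture and gate, the genes whose log2 levels went most closely with Hspa5 were Hsp90b1 (r = 0.95), Pdia6 (0.94), Creld2 (0.92), Manf (0.90) and Calr (0.90). With the mean of each culture removed the values were 0.87, 0.92, 0.70, 0.73 and 0.89. Dnajb9, Chac1, Ddit3, Ero1lb and Trib3 went the other way over all 16 (-0.60 to -0.71). With culture means removed Dnajb9 (0.21) and Chac1 (0.16) were above 0, and Trib3 (-0.07), Ero1lb (-0.29) and Ddit3 (-0.41) below. The points share cultures, plates and depth, and the values describe these sums only.

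The authors' clusters nearly separated the cultures, with 166 of 174 quiescent cells in cluster 1, 163 of 164 activated cells in cluster 2, and 145 of 151 24 h cells in cluster 0. The 48 h culture was divided between cluster 0 (41 cells) and cluster 3 (109 cells). Between these 2 parts of the 48 h culture the summed level of the 35 genes was 3429 and 3588 CPM and that of Hspa5 332 and 325 CPM. Xbp1 stood at 53.4 and 25.7 CPM, and Calr at 555 and 457 CPM; the clusters were made from the same cells, so these values are a description. By the authors' phase, the 35 genes summed to 3586, 3542 and 3533 CPM in G1, S and G2M cells of the 48 h culture, and to 4612, 4797 and 5112 CPM in those of the activated culture. The 48 h values were below the activated ones in each phase.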

How the data were processed

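The 35 genes, the pathway and marker lists, the rule for named genes, the tests and the motifs were chosen with earlier results of these data known. The rule gave gate values for Hspa5, Calr, Xbp1, Atf4 and Ddit3, and for the 4 listed genes and 4 pathway genes with the largest log2 ratios in each direction in each comparison within a plate (at least 100 counts), and the 3 listed genes with the smallest p in the gate test.

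Per the labels' protocols, SORT-seq libraries were made with CEL-Seq2 chemistry, 1 per plate. Per the submitters' processing notes, the tools were Seurat 4.1.1, R 4.2.0 and BWA 0.7.15, and the builds mm10 and hg19; roles, counting and cell filters are not given in the sources used here. The authors deposited expected counts, in which the number of distinct identifiers has been corrected for collisions. The percent of mitochondrial and ribosomal counts, the intensity of autofluorescence, the phase score, phase, cluster, culture and gate are as the authors deposited them per cell. Of the wells, 128 were not among the 640 kept cells and were left out. Whether they had held a cell is not given in the sources used here. Doublets were not searched for, as cells were sorted singly.

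Counts were summed per culture, or per culture and gate, and divided by the total to give CPM. Ratios used 10 CPM added, a minimum of 20 counts in both cultures together and exact conditional binomial intervals. In data simulated for 24 h against quiescence, these intervals held the true ratio for 97.0% of 67 genes changed 2-fold. For 66 genes changed 4-fold the share was 93.9%. The simulation drew counting error only, which the intervals assume, so it cannot show how they hold where cells differ further. Shares of cells were taken after thinning each cell to the 10th percentile of cell totals; their intervals are exact binomial.

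Gate sums were rounded and tested with edgeR 4.0.16 in R 4.3.3 (TMM, filterByExpr, quasi-likelihood, Benjamini-Hochberg over all genes). Tested on simulated data, the gate test recovered 22 of 67, 64 of 67 and 66 of 66 genes changed 1.5-, 2- and 4-fold, with 6 false calls in 8498. Alternatives were DESeq2 1.42.0, other scalings, filters and thresholds, and leaving out each gate or culture. The rest was done with scipy 1.17.1, pandas 2.3.3 and numpy 2.4.6 under Python 3.11.15, and drawn with matplotlib 3.10.9. Promoter sequences and starts are RefSeq's (GRCm38.p6), and 31 of 35 genes were matched. The 4 cultures gave 1 sample each, so the p-values measure how the gates differ over cultures of different states.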

Additional observations from a re-analysis of the deposited data

Results flagged for a closer look

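In 3 genes the difference between the high and low gates in the quiescent culture lay apart from the other 3 cultures, relative to the range of the 4 values. The log2 difference of Asns was 0.88 in quiescent cells and between -0.38 and -0.27 in the others. That of Dnajc3 was -0.12 in quiescent cells and between 0.11 and 0.14 in the others, and that of Ero1lb was 0.090 against 0.21 to 0.23. The gap to the nearest culture made up 91.1%, 87.9% and 88.1% of the range of the 4 values. Chance alone gives about 1 such value in 20 groups, and 35 genes were looked at. For Asns the interaction of gate slope and culture had an unadjusted p of 0.00268 and an adjusted p of 0.120 by edgeR. For Dnajc3 and Ero1lb the unadjusted p of the same edgeR test was 0.637 and 0.804. Ero1lb had 31 counts in the quiescent culture and was not among the genes tested between the high and low gates.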

How the results depend on the processing

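Other choices moved counts more than directions. Of 199 alternative values for medians and counts of genes past a threshold, 140 stayed within the allowed range, 54 moved and 5 reversed. For 24 h against quiescence, adding 1 CPM gave 5 genes at least 1.5-fold higher, a minimum of 100 counts gave 1, and a 2-fold threshold left 3 lower. Spike-in scaling gave a median of -0.67 with 19 lower. Leaving out each gate gave medians of -0.38 to -0.24, with 2 to 3 higher and 10 to 11 lower.

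For 48 h against activated cells, adding 1 CPM gave 3 higher and 9 lower. Totals without mitochondrial and ribosomal protein genes gave a median of -0.12 with 2 higher, the mean of per-cell CPM gave 2 higher, and G1 cells alone gave 2 higher. Spike-in scaling gave a median of -0.56 with 0 higher and 16 lower, and a 2-fold threshold left 0 higher and 0 lower. Leaving out each gate gave medians of -0.32 to -0.17, with 1 to 2 higher (2 without the low or the high gate) and 5 to 8 lower (8 without the low gate).

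For activated against quiescent cells, spike-in scaling gave a median of 0.51 with 15 higher and 1 lower. The median reversed to -0.020 with the mean of per-cell CPM and to -0.13 in G1 cells, which gave 10 lower. A 2-fold threshold left 1 higher and 2 lower. Leaving out each gate gave medians of -0.048 to 0.078, reversed without the mid-high gate (-0.048) and without the high gate (-0.027), with 1 to 4 higher and 3 to 4 lower. For 48 h against 24 h, adding 1 CPM gave a median of 0.21 with 5 higher, totals without mitochondrial and ribosomal protein genes gave 0.24, and spike-in scaling gave 0.55 with 16 higher and 2 lower. In G0 cells the median reversed to -0.051, and a 2-fold threshold left 0 higher and 2 lower. For 48 h against quiescence, adding 1 CPM gave 2 higher, totals without mitochondrial and ribosomal protein genes gave 2 higher and 4 lower, spike-in scaling gave a median of -0.090 with 3 lower, G0 cells gave 0 higher, and a 2-fold threshold left 2 lower.

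Among single genes, Dnajb9 reversed to -0.084 at 24 h with spike-in scaling and to -0.040 at 48 h in G1 cells. Fkbp2 at 48 h reversed to -0.12 with spike-in scaling, and Os9 to -0.12 with spike-in scaling and -0.070 in G1 cells. Of the named ratios between cultures, spike-in scaling moved 20 of 26 and reversed 3, and G1 cells alone moved 8 of 13 and reversed 2. The 3 counted as reversed by spike-ins, Dnajb9 at 24 h and Fkbp2 and Os9 at 48 h, had intervals that did not hold 0. The ratios of Fkbp2 at 24 h and of Ssr1 and Herpud1 at 48 h, with intervals that held 0, also went below 0 with spike-in scaling. In the gate test 208 genes were called, none of them among the 35. DESeq2 called 124 genes with 1 of the 35, no filter 414 with 1, all 16 sums with the gate as a factor 522 with 2, and the gate number as a linear term 638 with 1. Without the culture block 0 genes were called. Leaving out each culture gave 20 (without the 48 h culture; 84 without the activated culture) to 179 genes and 0 of the 35. The interaction test called 249 genes with no filter, against 90. The cause of these changes was not tested. Between cultures no paired analysis was possible, because each culture was measured once and the labels give no replicate numbers that cultures share. The gate test did pair the high and low gates of each culture through the culture block. Low depth limits Trib3, Chac1, Ddit3, Sdf2l1 and Ero1lb most.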
